A study of Mus musculus with 2 samples.

Results

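The genes described here encode the nuclear subunits of the mitochondrial respiratory chain (complexes I to IV), cytochrome c and the subunits of ATP synthase (complex V), with a few related proteins that share their names. Membership was set by gene name, and the group was chosen with earlier results of these data known. It holds every gene probe whose name on the array starts with Nduf, Uqcr, Cox4, Cox5, Cox6, Cox7, Cox8 or Atp5, or is Sdha, Sdhb, Sdhc, Sdhd, Cycs or Cyc1. This gave 85 genes (121 probes) of the 27845 gene names on the array. The deposited value table holds 71 of them (85 probes), among 4413 named genes, and these are called measured below. Complex I had 35 genes on the array, complex II 4, complex III 8, complex IV 17, complex V 15 and cytochrome c 1, and the last 5 names belong to assembly factors or related proteins. The measured numbers were 32, 3, 8, 11, 15 and 1, with Cox7a2l as the 1 measured related gene.

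RNA came from pancreatic lymph nodes of female NOD mice aged 16 weeks, a strain that develops autoimmune diabetes without treatment. Each of 2 hyperglycemic mice, with blood glucose above 500 mg/dl, was labelled with Cy5 and hybridised on an Agilent mouse array of its own. Both mice were compared with 1 Cy3-labelled pool, made from 2 euglycemic NOD mice of the same age and sex with blood glucose below 200 mg/dl, and 1 ug of total RNA was amplified and labelled for each sample. Every value is a log2 ratio of the hyperglycemic mouse over the pool, so a value above 0 is a higher signal in the hyperglycemic mouse, and the replicates are the 2 hyperglycemic mice (n = 2). The pool counts as 1 control sample, which leaves out how control mice vary, and the hyperglycemic RNA was always in Cy5, so dye and group cannot be told apart.

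Complexes I and II take electrons from NADH and succinate and pass them through ubiquinone to complex III, and cytochrome c carries them on to complex IV, which reduces oxygen. Complexes I, III and IV pump protons across the inner mitochondrial membrane, and complex V lets them flow back through its membrane part while its F1 head makes ATP. Resting lymphocytes make most of their ATP this way, and they enlarge the system when they are activated. A few subunits of complexes I, III, IV and V are encoded by the mitochondrial genome, and all the others are nuclear genes made in the cytosol and imported.

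The Cy5 channel was dim: well above background were 14.5% and 16.4% of gene spots in Cy5 on arrays 1 and 2, against 21.7% and 63.0% in Cy3. Precision is limited by having 2 arrays. Among the members themselves, 86 and 88 of the 121 probes were well above background in Cy5 and 99 and 114 in Cy3, and 0 were saturated. Some cell type markers differed between the groups as well. All 6 measured T cell markers were lower, with medians of -1.52 in mouse 1 and -1.40 in mouse 2. The processed signals summed over the 9 T cell markers on the array, measured or not, were 5988 and 10336 in the hyperglycemic mice. In the pool they were 15107 and 23465. Exocrine pancreas markers were 5 higher and 2 lower of 9 measured, B cell markers 1 higher and 2 lower of 4, adipocyte markers 0 higher and 1 lower of 3, macrophage markers 1 higher and 1 lower of 4, and all 3 measured red cell markers were higher. Over all genes 25.4% were called higher and 18.2% lower at an adjusted p under 0.05 in limma. Muscle and brown adipose tissue are rich in mitochondria, and 0 of their markers were measured. Ckm, Myh1, Myh2, Myh4, Mb, Ucp1 and Dio2 were not well above background in either channel on either array, and Acta1, Tnnt3, Cidea, Cox7a1 and Cox8b were so in Cy3 on array 2 alone. In a whole lymph node, fewer cells of a type and less RNA per cell cannot be told apart, and the part of these markers in the results below was not tested.

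The comparison asks which transcripts differ in the lymph node between hyperglycemic and euglycemic mice. Most respiratory chain and ATP synthase transcripts lay close to the level of the pool. In the deposited ratios 6 of the 71 measured members were called higher (8.45%) and 10 lower (14.1%) at an adjusted p under 0.05 in limma, and 55 were not called. Over all 4413 genes 25.4% were called higher and 18.2% lower. In this fit the members thus had a smaller share called in both directions than the table as a whole. The median ratio of the members was 0.02 in mouse 1 and 0.01 in mouse 2, and that of all genes was 0.09 and 0.04. The interquartile range of the members ran from -0.28 to 0.28, and that of all genes from -0.33 to 0.50. Of the members 83.1% were within 0.5 of 0, against 58.2% of all genes, and 1 member (1.41%) lay beyond 1, which is a 2-fold difference, against 12.2% of all genes. Members are bright: 64 of the 71 were brighter than the median gene and 27 were among the brightest 10% of genes. Among the 646 genes at least as bright as the median member, 23.1% were called higher and 17.5% lower. The counts of calls moved with the variance model and the filter on dim probes. With an intensity trend in the variance 15 members were called higher (21.1%) and 14 lower (19.7%), where 26.3% of all genes were higher and 19.7% lower. With the probes brighter than the median alone, 9 of 64 members were called higher and 11 lower, where 25.2% of all genes were higher and 22% lower. The comparison turned in a fit of the scanner signals with no background correction. There 22 of 77 members were called higher and 11 lower, against 1109 and 897 of 7303 genes, a larger share of the members in both directions.

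**Figure D1:**
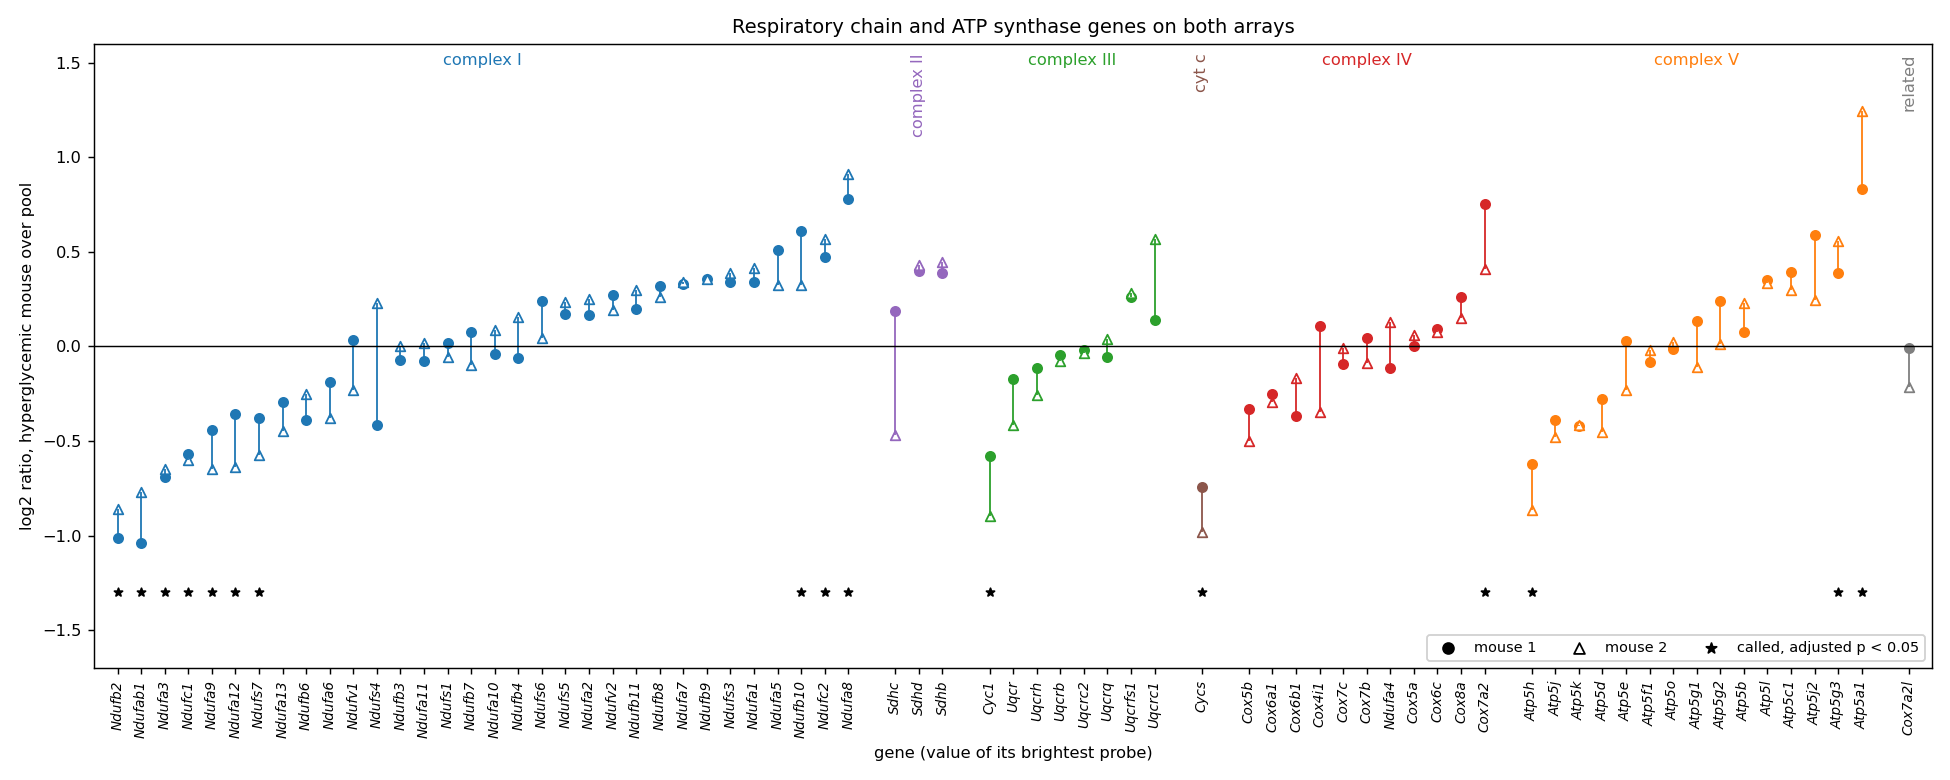
Log2 ratio of each measured member (vertical axis, hyperglycemic mouse over pool, value of the brightest probe) in mouse 1 (filled circles) and mouse 2 (open triangles), ordered within each complex by the mean, with a line joining both mice. Stars mark the 16 genes called at an adjusted p under 0.05 in limma, which stand at the ends of complexes I and V and include Cyc1, Cycs and Cox7a2, while most genes lie within 0.5 of 0.

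In the deposited ratios the medians of complexes I, III, IV and V lay near 0, and complex II stood higher. Complex I, with 32 of the 71 measured members, held 7 of the 10 lower calls and 3 of the 6 higher calls. Over all genes 18.2% were called lower and 25.4% higher. The median of complex I was 0.03 in mouse 1 and 0.07 in mouse 2. Complex II had medians of 0.39 and 0.43 over 3 genes and 0 calls in limma (2 higher and 0 lower at an unadjusted p under 0.05). Complex III had 1 lower and 0 higher calls (0 higher also at an unadjusted p under 0.05), with medians of -0.05 and -0.06. Complex IV had 1 higher and 0 lower calls (1 lower at an unadjusted p under 0.05), with medians of 0.00 and -0.01. Complex V had 2 higher and 1 lower calls, with medians of 0.08 and 0.01. The order turned in a fit of the scanner signals, described next, where the median of the mean ratio was 0.028 for complex II (4 genes), 0.50 for complex IV and 0.45 for complex V, with -0.0017 for complex I and 0.07 for complex III. These medians are descriptions over unequal numbers of genes, and no difference between complexes was tested.

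That second fit began again from the scanner signals, with normexp background correction (offset 50) and loess within each array, and kept probes that passed the background flag in 1 channel or both. It tested 77 member genes among 7303. There 17 members (22.1%) were called higher and 0 lower (10 lower at an unadjusted p under 0.05), where 5.31% of all genes were called higher and 0.698% lower. Of the members 68.8% were within 0.5 of 0 in that fit, against 90.3% of all genes, and 14.3% lay beyond 1, against 4.48%. The members were thus further from 0 than all genes there, and closer to it in the deposited ratios. Both fits read the same 2 arrays. Only Atp5a1 and Atp5g3 were called higher in both, 0 members were called lower in both, and 0 members had opposite calls. All 10 genes called lower in the deposited ratios had a scanner-signal ratio below 0, and all 6 called higher had one above 0. In the scanner-signal fit the ratio of a member rose with its brightness (Spearman's rho = 0.81 across the 71 members in both fits), and in the deposited ratios the same rho was 0.30. Over all genes of each fit the rho was 0.15 in the scanner-signal fit (7303 genes) and -0.11 in the deposited ratios (4413 genes). In the deposited ratios 5 of the 6 higher calls were on members brighter than the median member (all but Ndufa8), and 9 of the 10 lower calls were on members that were not (all but Atp5h). Genes are not independent replicates, and the members share 2 arrays and a channel balance, so these coefficients are descriptions. Ratios below are from the deposited table unless named as scanner-signal values.

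**Figure D2:**
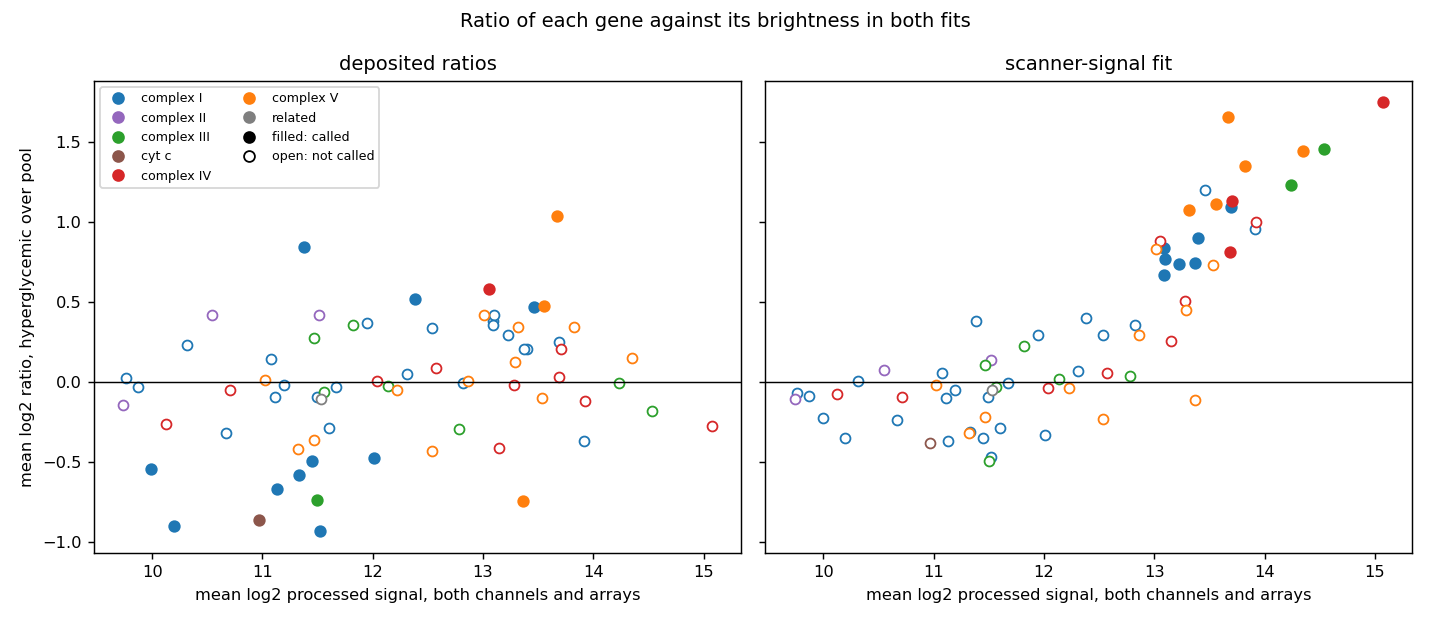
Mean log2 ratio of each measured member (vertical axis) against its brightness (horizontal axis, mean log2 processed signal over both channels and arrays), in the deposited ratios (left) and in the scanner-signal fit (right). Colours give the complex and filled points are genes called in that fit; on the right the brightest genes carry the highest ratios and all 17 calls, and on the left 5 of the 6 higher calls lie above the median brightness of the members and 9 of the 10 lower calls at or below it.

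Nuclear respiratory chain genes are known targets of the transcription factors NRF1, GABPA and YY1, and the sequence around their start sites is shown here for called genes that hold one of the motifs. RefSeq promoter windows of build GRCm38.p6, from 250 bases before to 50 bases after a start, were matched for 60 of the 71 measured members, and the motifs were searched on both strands as exact letters. The YY1 letters AAGATGGC were in windows of 10 members, against 3.19% of the 27025 genes with a window, and the NRF1 letters GCGCATGC were in those of 11, against 3.05%. The shorter NRF1 core TGCGCA, which overlaps the longer NRF1 motif in some windows, was in those of 17 members, against 8.79% of genes, the GABPA letters CCGGAAGT in 5, against 4.31%, and the TATA box letters TATAAA in 5, against 15.7%. By call, YY1 letters were in 4 of 9 lower, 0 of 5 higher and 6 of 46 uncalled members with a window, and NRF1 letters in 1, 1 and 9 of them. In 8 members the YY1 letters lay within the 50 bases after the start, a position found in 1.35% of all genes. A match is a description of the letters and not a binding site. The first 4 stretches are the lower complex I genes with YY1 letters (capitals), which begin 23 to 30 bases after the start counted from 1, and the other 3 end at the base before the start and carry the NRF1 letters or the GABPA letters, read as the reverse complement, in capitals.
Ndufa3 (chr7:3617384-3617413, plus strand): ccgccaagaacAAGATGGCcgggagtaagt
Ndufc1 (chr3:51408915-51408944, minus strand): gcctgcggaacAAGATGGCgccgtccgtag
Ndufs7 (chr10:80249462-80249491, plus strand): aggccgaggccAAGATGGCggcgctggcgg
Ndufa9 (chr6:126849097-126849126, minus strand): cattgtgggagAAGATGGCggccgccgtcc
Cycs (chr6:50566570-50566669, minus strand, NRF1): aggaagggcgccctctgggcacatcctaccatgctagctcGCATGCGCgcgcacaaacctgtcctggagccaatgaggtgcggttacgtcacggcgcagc
Ndufa8 (chr2:36049339-36049438, minus strand, NRF1): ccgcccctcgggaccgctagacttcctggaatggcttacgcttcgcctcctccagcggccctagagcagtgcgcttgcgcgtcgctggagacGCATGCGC
Atp5h (chr11:115419920-115420019, minus strand, GABPA): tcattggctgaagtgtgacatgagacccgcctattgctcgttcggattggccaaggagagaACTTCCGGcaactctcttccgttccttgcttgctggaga

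The lower calls of complex I fell on subunits of all 3 modules of the complex. The N module, which oxidises NADH, had 0 higher and 1 lower of 9 measured genes (0 higher also at an unadjusted p under 0.05). The Q module, which reduces ubiquinone, had 0 higher and 2 lower of 4 (2 higher at an unadjusted p under 0.05). The P module, the proton-pumping membrane arm, had 3 higher and 4 lower of 19. Over all genes 25.4% were called higher and 18.2% lower.

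Ndufb2, a small accessory subunit of the membrane arm, had the lowest ratio of all members. Its processed signal was 1591 in mouse 1 against 3211 in the pool on the same array, and 2839 in mouse 2 against 5144. The log2 ratios were -1.01 and -0.86, both well below 0, with a mean of -0.94 ± 0.11 (SD, n = 2), a 1.91-fold lower signal (limma, adjusted p = 0.0037). Its probe lies on mm8 chromosome 6, 39527917 to 39529002. Ndufab1 is the mitochondrial acyl carrier protein, which also serves fatty acid synthesis inside mitochondria. It was at -1.04 and -0.77, a mean of -0.90 ± 0.19 and 1.87-fold lower (adjusted p = 0.0047, mm8 chromosome 7, 121882765 to 121882824). Ndufa3, another membrane arm subunit and one of the genes with YY1 letters after its start, was at -0.69 and -0.65 (mean -0.67 ± 0.03, adjusted p = 0.012, mm8 chromosome 7, 3222517 to 3222576). In each of these 3 genes both mice lay on the same side of the pool, and the distance between the mice was smaller than the distance of either from 0.

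Ndufc1 is a small membrane arm subunit, and its brightest probe was at -0.57 and -0.60 (mean -0.58 ± 0.02, adjusted p = 0.0196). Its second probe in the table lies 1890 bases away and was at 0.19 and -0.46 (mean -0.14, adjusted p = 0.60), so the mice fell on both sides of 0 there. Ndufa9, a Q module subunit near the ubiquinone site, was at -0.44 and -0.65 (mean -0.55 ± 0.14, adjusted p = 0.028). Ndufs7 carries the last iron-sulfur cluster before ubiquinone and was at -0.38 and -0.58 (mean -0.48 ± 0.14, adjusted p = 0.043). Ndufa12, an accessory subunit of the N module, was at -0.36 and -0.64 (mean -0.50 ± 0.20, adjusted p = 0.041). The second probe of Ndufa12 gave -0.21 and -0.63, a mean of -0.42 in the same direction, with an adjusted p of 0.083. When a gene took the mean of its probes instead of the brightest one, Ndufa12 (-0.46, adjusted p = 0.052) and Ndufc1 (-0.36, adjusted p = 0.11) were no longer called in limma.

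The scanner-signal ratios of these 7 genes were also below 0 and smaller in size: -0.47 for Ndufb2, -0.37 for Ndufa3, -0.35 for Ndufab1 and Ndufa12, -0.34 for Ndufs7, -0.31 for Ndufc1 and -0.23 for Ndufa9. Their adjusted p in that limma fit ran from 0.074 for Ndufb2 to 0.33 for Ndufa9, so none of the 7 was called there.

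The highest ratio of complex I was that of Ndufa8, a subunit of the membrane arm that faces the intermembrane space. Its processed signal was 2696 against 1570 in the pool in mouse 1, and 4737 against 2519 in mouse 2. The ratios of 0.78 and 0.91 gave a mean of 0.85 ± 0.09 (1.80-fold higher, limma, adjusted p = 0.0053, mm8 chromosome 2, 35858343 to 35858399). A second probe that starts 17 bases away was at 1.19 and 1.34 (mean 1.27, adjusted p = 0.0015), so both probes were called and both mice were above the pool with each. The scanner-signal ratio was 0.38 (adjusted p = 0.17). Ndufc2, which sits beside Ndufc1 in the membrane arm, was at 0.47 and 0.57 (mean 0.52 ± 0.07, adjusted p = 0.030), opposite in direction to Ndufc1. Ndufb10, a membrane arm subunit with disulfide bonds, was at 0.61 and 0.33 (mean 0.47 ± 0.20, adjusted p = 0.0498), just inside the threshold, and was not called after median centring of the ratios (0.42, adjusted p = 0.061).

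The other 22 measured complex I genes were not called. Their means ran from -0.37 for Ndufa13, a subunit also known as Grim19, to 0.42 for Ndufa5. Ndufb7 lay nearest to 0, at 0.08 and -0.10, with a mean of -0.01 and a 95% interval of -0.38 to 0.36. Ndufs1, the largest iron-sulfur subunit of the N module, was at 0.02 and -0.05, and Ndufv1, which binds NADH, at 0.04 and -0.23. Ndufs4, an accessory subunit whose loss causes a mitochondrial encephalopathy in mice, split the mice, at -0.41 and 0.23. Intervals of this width leave room for differences of about the size of the smaller calls above. 7 complex I genes were called higher in the scanner-signal fit, and all of them were also above 0 in the deposited ratios without a call: Ndufs5, Ndufa2, Ndufb11, Ndufb8, Ndufb9, Ndufa1 and Ndufa5.

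In complex II, succinate dehydrogenase, Sdhb and Sdhd had nearly the same ratio and Sdhc did not share it. Sdhb, the iron-sulfur subunit, was at 0.39 and 0.45 (mean 0.42 ± 0.04, limma, adjusted p = 0.062). Sdhd, a membrane anchor, was at 0.40 and 0.43 (mean 0.42 ± 0.02, adjusted p = 0.062). Sdhc, the other membrane anchor, was at 0.19 and -0.47 (mean -0.14 ± 0.46), on both sides of the pool. Sdhb and Sdhd missed the threshold over all probes and passed it when only probes brighter than the median were tested, where 2 of 2 measured complex II genes were called higher. Their scanner-signal ratios were 0.07 and 0.13. Sdha, the catalytic flavoprotein, was not measured. A probe of Sdha gave ratios of -0.91 and -1.96 with Cy5 not well above background on either array, and its other probe gave 0.63 and -0.75 with Cy5 well above background on 1 array.

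In complex III and cytochrome c, the lower calls were the 2 heme-carrying cytochromes that pass electrons from complex III to complex IV. Cyc1, the cytochrome c1 of complex III, had signals of 1993 in mouse 1 against 2976 in the pool and 2514 in mouse 2 against 4687. Its ratios were -0.58 and -0.90 (mean -0.74 ± 0.23, 1.67-fold lower, limma, adjusted p = 0.011, mm8 chromosome 15, 76172763 to 76172822). Cycs, the soluble cytochrome c that also triggers apoptosis when it leaves the mitochondrion, had signals of 1335 against 2235 and 1644 against 3248. Its ratios were -0.74 and -0.98 (mean -0.86 ± 0.17, 1.82-fold lower, adjusted p = 0.0054, mm8 chromosome 6, 50494842 to 50494901). Both genes were lower in both mice and further from the pool in mouse 2. The 2 other Cycs probes on the array are not in the value table. Cy5 was not well above background with either, and their ratios were -1.76 and -1.003 for one and -0.63 and -1.81 for the other. The scanner-signal ratios were -0.49 for Cyc1 (adjusted p = 0.11) and -0.38 for Cycs (adjusted p = 0.13).

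The other 7 complex III genes were not called. Uqcrq, a small subunit, was nearest to 0, at -0.06 and 0.04 (95% interval -0.37 to 0.35), and the core protein gene Uqcrc2 was at -0.02 and -0.03. Uqcrfs1, the Rieske iron-sulfur protein, was at 0.26 and 0.28, and the core protein gene Uqcrc1 at 0.14 and 0.57. Uqcrh, the hinge protein that holds cytochrome c1, was at -0.11 and -0.26 with its brightest probe, a mean of -0.18, and the mean of its second probe was -0.19. Uqcrh and Uqcrq changed sign in the scanner-signal fit, where they were called higher at 1.46 (adjusted p = 0.047) and 1.23 (adjusted p = 0.013).

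Complex IV, cytochrome c oxidase, had 1 call among 11 measured genes. Cox7a2, the widely expressed form of the COX7A subunit, had signals of 9544 against 5657 in mouse 1 and 11268 against 8492 in mouse 2. Its ratios were 0.75 and 0.41 (mean 0.58 ± 0.24, limma, adjusted p = 0.027, mm8 chromosome 9, 79541104 to 79541163). Its second probe, which starts 12 bases away, was at 0.37 and 0.69 (mean 0.53, adjusted p = 0.034), so both probes placed both mice above the pool but in opposite order. Ndufa4, which is now counted as a complex IV subunit, lay nearest to 0, at -0.11 and 0.13 (95% interval -0.37 to 0.38). Cox5a was at 0.00 and 0.06 with an interval of -0.33 to 0.39, and Cox4i1, the common form of the largest nuclear subunit, was at 0.11 and -0.35. Cox5b had the lowest ratio of the complex, at -0.33 and -0.50 (adjusted p = 0.066). Cox6a1, the brightest member, was at -0.25 and -0.30, and its scanner-signal ratio was 1.75 (called higher, adjusted p = 0.036), the largest change of sign among the 3 members that had one with a call.

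Complex IV has subunits that exist in tissue-restricted forms, and these were the main group of members without a measured value. Cox4i2 (lung), Cox6a2, Cox7a1 and Cox8b (heart and muscle), and Cox6b2 and Cox8c (testis) were all absent from the value table. Cox4i2 and Cox8c were not well above background in either channel on either array. Cox6a2, Cox6b2, Cox7a1 and Cox8b were well above background in Cy3 on 1 array and in Cy5 on neither. Cox7a1 had a Cy5 signal of 295 and 409 against 55.0 and 104 in Cy3 (ratios of 2.43 and 1.97), and because Cy5 was not well above its background no fold is given. The common forms Cox4i1, Cox6a1, Cox6b1, Cox7a2 and Cox8a were all measured.

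The members without a measured value also included Atp5s, Cox4nb, Ndufa12l, Ndufaf1, Ndufb5, Ndufs8 and Sdha. None of the 14 genes was well above background in Cy5 on both arrays, and 6 had a probe well above background in Cy3 on both. No fold is given for them, because Cy5 was dim. The counts of calls cover the 71 measured members and not all 85.

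Complex V had the highest ratio of all members, in its catalytic head, and a lower call in its stalk. The F1 part had 1 higher and 0 lower calls (0 lower also at an unadjusted p under 0.05) of 5 measured genes, and the membrane and stalk part had 1 higher and 1 lower of 10. Over all genes 25.4% were called higher and 18.2% lower. Atp5a1, the alpha subunit of F1, had signals of 12621 in mouse 1 against 7096 in the pool and 27675 in mouse 2 against 11672. Its ratios were 0.83 and 1.25 (mean 1.04 ± 0.29, 2.05-fold higher, limma, adjusted p = 0.0036), and it was also called higher in the scanner-signal fit (1.66, adjusted p = 0.0031). The other Atp5a1 probe in the table disagreed. It starts 252 bases away and was at -0.32 and -0.61 (mean -0.47, adjusted p = 0.0504), below the pool in both mice. With the mean of both probes the gene was at 0.28 and was not called (adjusted p = 0.16), so the highest value among the members rests on 1 of 2 probes.

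Atp5g3, a gene for the proton-carrying c subunit, was at 0.39 and 0.56 (mean 0.47 ± 0.12, 1.39-fold higher, limma, adjusted p = 0.043, mm8 chromosome 2, 73709301 to 73709360). Its scanner-signal ratio was 1.11 (called higher, adjusted p = 0.011). It was not called after median centring (0.42, adjusted p = 0.058). Atp5g1 and Atp5g2 encode the same mature c subunit, and they were at 0.14 and -0.11 and at 0.24 and 0.01, without a call. The second Atp5g2 probe had a mean of 0.00. Among the 3 genes of this protein, Atp5g3 was thus the 1 with a call, and the difference between them was not tested.

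Atp5h, the d subunit of the stalk that holds the F1 head still, was the lower call of complex V. Its signals were 7122 against 10958 in mouse 1 and 9331 against 17013 in mouse 2. The ratios were -0.62 and -0.87 (mean -0.74 ± 0.17, 1.67-fold lower, limma, adjusted p = 0.0094, mm8 chromosome 11, 115231870 to 115231929). A second probe that starts 40 bases away gave -0.65 and -0.83 with the same mean of -0.74 (adjusted p = 0.0089), so this was the closest pair of called probes among the members. Its scanner-signal ratio was -0.11 (adjusted p = 0.74).

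The other 12 complex V genes were not called. Atp5o, the subunit of the stalk that confers sensitivity to oligomycin, lay nearest to 0, at -0.01 and 0.02 (95% interval -0.35 to 0.36). Atp5b, the beta subunit that carries the catalytic sites, was at 0.08 and 0.23 with its brightest probe and had a mean of 0.04 with the second, and its scanner-signal ratio was 1.44 (called higher, adjusted p = 0.0075). Atp5j and Atp5k, of the stalk and the membrane part, were at -0.39 and -0.48 and at -0.42 and -0.41, just outside the threshold (adjusted p = 0.054 and 0.060). Atp5c1, the central gamma subunit that rotates inside F1, was at 0.39 and 0.30. The 1 measured related gene, Cox7a2l, which helps complexes III and IV to associate, was at -0.01 and -0.21 and was not called.

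**Figure D3:**
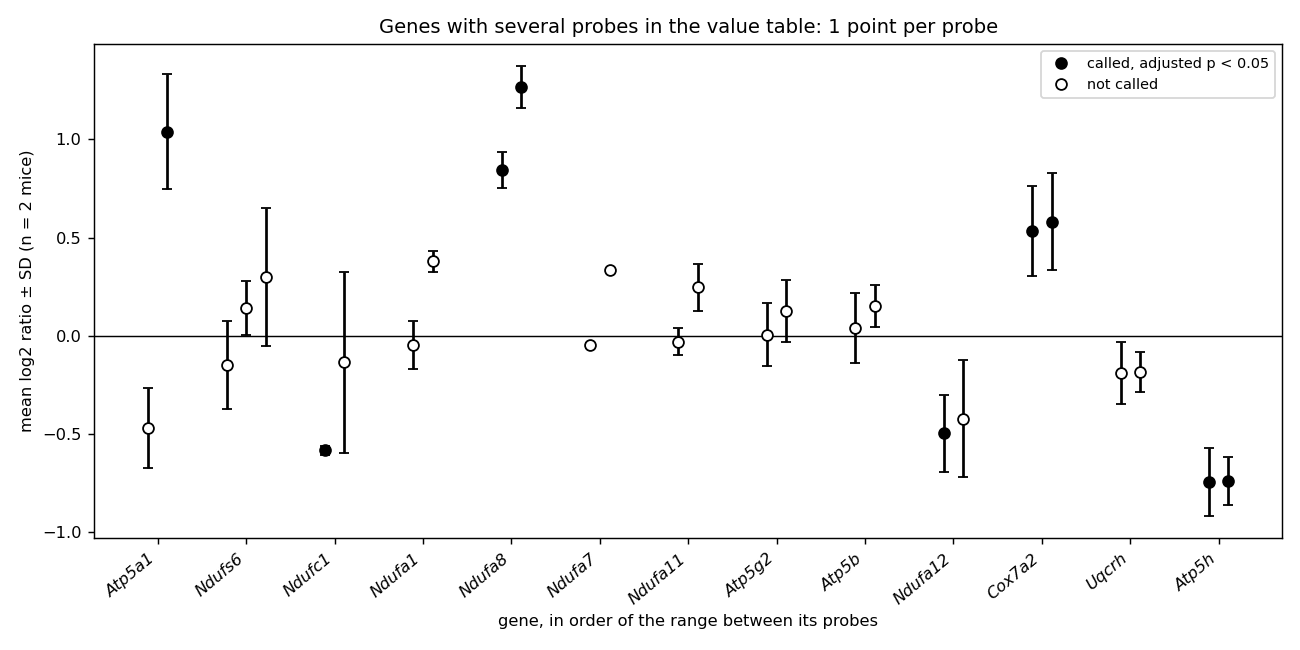
Mean log2 ratio with its SD (n = 2 mice) of every probe of the 13 members that have several probes in the value table, ordered from the widest to the narrowest range between probes. Filled points are probes called in limma; the 2 Atp5a1 probes lie on both sides of 0, and both probes of Ndufa8, Cox7a2 and Atp5h are called in the same direction.

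The 13 members with several probes in the table show how far the value of a gene differs between its probes. Why probes of a gene differ was not tested. The range between the probe means of a gene had a median of 0.28 and was under 0.5 in 12 of the 13 genes, the exception being Atp5a1 at 1.51. In 3 genes every probe was called (Ndufa8, Cox7a2 and Atp5h), and in 5 genes the probe means lay on both sides of 0. Besides Atp5a1 these were Ndufs6 (0.14 for the brightest of 3 probes, with the others at -0.15 and 0.30), Ndufa1 (0.38 and -0.05), Ndufa7 (0.34 and -0.05) and Ndufa11 (-0.03 and 0.25). None of these 4 genes had a called probe. For Ndufa11 the 2 probes start 10 bases apart.

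The remaining genes of the pathway were read from lists of textbook genes, with calls from the same limma fit of all genes. In that fit 25.4% of all genes were called higher and 18.2% lower. Of the 3 measured genes named as subunits encoded by the mitochondrial genome, 0 were called higher and 2 lower (0 higher also at an unadjusted p under 0.05). The ND4L probe, for a proton-pumping subunit of complex I, was at -1.07 and -1.25 (mean -1.16 ± 0.13, adjusted p = 0.0019). The CYTB probe, for the cytochrome b of complex III, was at -0.72 and -0.96 (mean -0.84 ± 0.17, adjusted p = 0.0060), and the COX2 probe, for a catalytic subunit of complex IV, which the files place on mm8 chromosome 1, was at -0.31 and -0.28 (adjusted p = 0.15). Whether the COX2 probe, given that position, reads the mitochondrial transcript was not tested. In the scanner-signal fit the 3 probes were at -0.47, 0.60 and 2.54, and COX2 was called higher there (adjusted p = 0.019). The direction of CYTB and COX2 thus turned between the fits.

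Assembly factors, which insert cofactors and build the complexes, were 2 higher and 3 lower of 14 measured. Cox17, a copper carrier for complex IV, was at 0.64 and 0.92 (mean 0.78 ± 0.20, adjusted p = 0.0083), and Sdhaf1, which helps to load iron-sulfur clusters into Sdhb and is named 0610010E21Rik on the array, was at 0.40 and 0.64 (adjusted p = 0.034). The lower genes act on complex IV: Surf1 was at -0.60 and -1.14 (adjusted p = 0.0086), Cox20, named 2310005N03Rik, at -0.90 and -0.98 (adjusted p = 0.0035), and Coa5, named 6330578E17Rik, at -0.46 and -0.66 (adjusted p = 0.025). In the scanner-signal fit 1 of 25 assembly factors was called higher (Cox17, at 2.86) and 0 lower (1 lower at an unadjusted p under 0.05), so the calls of Sdhaf1, Surf1, Cox20 and Coa5 were lost there. The list of inhibitors, carriers and exchange proteins had 0 higher and 2 lower of 10 (0 higher also at an unadjusted p under 0.05). The phosphate carrier Slc25a3, which supplies ATP synthase, was at -0.70 and -0.79 (mean -0.74 ± 0.07, adjusted p = 0.0083), and Slc25a5, which exchanges ATP for ADP, was at -0.52 and -0.60 (adjusted p = 0.023). Neither was called in the scanner-signal fit (-0.53 and -0.34, adjusted p = 0.085 and 0.14), which called 0 of 11 genes of this list (2 higher and 2 lower at an unadjusted p under 0.05). The outer membrane channel Vdac1 was at -0.01 and 0.01, and Atpif1, the inhibitor of ATP synthase, at 0.12 and 0.34, without a call.

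The lists in this paragraph stand against 25.4% of all genes called higher and 18.2% lower, and 5.31% and 0.698% in the scanner-signal fit. The tricarboxylic acid cycle, which feeds NADH and succinate to complexes I and II, had 0 higher and 3 lower of 14 measured genes (1 higher at an unadjusted p under 0.05 in limma). The lower genes were the fumarase gene Fh1 at -0.45 and -1.28, Suclg1 at -0.54 and -0.63 and Idh3b at -0.29 and -0.76 (adjusted p = 0.016, 0.0196 and 0.047). All 3 calls were lost in the scanner-signal fit, where the list had 1 higher call of 14 (the malate dehydrogenase gene Mdh2, at 1.40) and 0 lower (1 lower at an unadjusted p under 0.05). The list of import genes, which also holds the prohibitin genes, had 2 higher and 4 lower of 14. The higher genes were Tomm5, named 1110019J04Rik, at 0.98 and 0.37 and Tomm34 at 0.46 and 0.66 (limma, adjusted p = 0.025 for each). Tomm7 was called lower, at -0.48 and -0.47 (limma, adjusted p = 0.040). The prohibitin genes Phb and Phb2, scaffold proteins of the inner membrane, were at -0.87 and -1.10 and at -0.68 and -0.34, and Timm8b, a chaperone of the intermembrane space, was at -0.91 and -0.78, all called lower (adjusted p = 0.0034, 0.040 and 0.0052). In the scanner-signal fit 0 of 18 import genes were called (0 higher and 4 lower at an unadjusted p under 0.05). Mitochondrial ribosomal proteins were 4 higher and 10 lower of 43, and 2 higher and 1 lower of 63 in the scanner-signal fit. In the deposited ratios cytosolic ribosomal proteins were 5 higher and 8 lower of 75. Of these 75, 84% were within 0.5 of 0, against 65.1% of the 43 mitochondrial ones. In the scanner-signal fit the cytosolic ribosomal proteins, which are the brightest of these lists, were 61 higher and 0 lower of 77 (1 lower at an unadjusted p under 0.05).

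Of the transcriptional regulators on the list, 2 of 18 on the array were measured. Tfam, which packages and transcribes the mitochondrial genome, was called higher with its brightest probe, at 2.55 and 1.61 (mean 2.08 ± 0.67, 4.23-fold, adjusted p = 0.0011). A second Tfam probe was at 0.07 and 0.85 (mean 0.46, adjusted p = 0.11) and was not called, so the size of this value rests on 1 probe. Yy1 was at 0.74 and 0.26 (mean 0.50 ± 0.34, adjusted p = 0.053). In the scanner-signal fit Yy1 was at 0.07 (limma, adjusted p = 0.71). The brightest Tfam probe was at 2.52 there and called higher (adjusted p = 0.016), and the second Tfam probe was at 0.24 (adjusted p = 0.40). Nrf1, Gabpa and Ppargc1a, the other named regulators of these genes, were not measured.

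**Figure D4:**
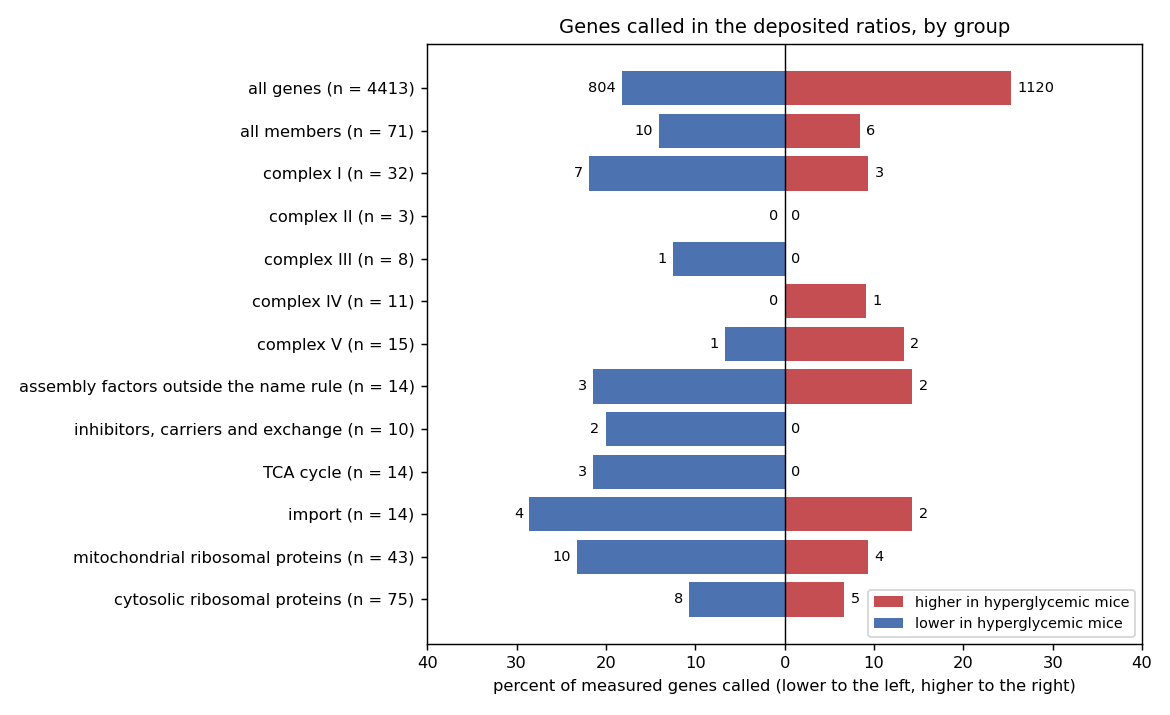
Percent of measured genes called lower (left, blue) and higher (right, red) in the deposited ratios at an adjusted p under 0.05 in limma, for all genes, all members, each complex and the related lists, with the number called at the end of each bar. The members have shorter bars than all genes in both directions. Lower calls outnumber higher ones in all members, complexes I and III and each related list drawn. Higher calls outnumber lower ones in all genes and in complexes IV and V.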

How the data were processed

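Per the file headers, both scans went through Agilent Feature Extraction 10.7.3.1, probe positions are those of mm8, and spot and background columns hold raw scanner intensity. Per the file headers, the processed signals are intensity values after background subtraction and dye normalization, with linear factors of 45.7 and 50.8 for Cy5 against 0.446 and 1.32 for Cy3, and each array's ratio is given as log10 (Cy5 over Cy3). A p-value per spot from the scanning software's error model, per the file headers, was left unused. The authors deposited a table of log2 ratios for 5072 gene probes and 26 controls. These log2 ratios equalled the rescaled log10 ratios of member probes to within 1.6e-06. How its probes were chosen is not given in the sources used here.

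The deposited log2 ratios of all gene probes were fitted with limma 3.58.1 in R 4.3.3 (mean against 0, two-sided, moderated, 1 residual and 6.30 prior degrees of freedom), with Benjamini-Hochberg adjustment across every probe fitted. Every adjusted p is from limma, and a call is an adjusted p under 0.05. A gene took its brightest probe. Each p-value rests on a variance that joins the spread between these 2 mice with a prior taken from all probes fitted. By these degrees of freedom the prior weighs more. The SD printed with a mean is that of the 2 mice alone, and the spread of control mice enters neither. The scanner-signal fit used normexp (offset 50) and loess (span 0.3). The limma fit was tested on simulated log2 ratios, which did not pass through normexp or loess.

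All 121 member probes matched the supplied RefSeq gene table. The array names Atp5f1, Atp5s, Cox4nb, Ndufa12l and Uqcr are now Atp5pb, Dmac2l, Emc8, Ndufaf2 and Uqcr11. Ndufa12l was counted as an assembly factor for that reason, although a reading of its array name alone would add it to complex I. Named in each complex were up to 5 called genes per direction and the gene nearest 0, every gene with several probes, genes that changed sign between fits with a call, and tissue-restricted forms. Other genes were named after their values were seen. The members and lists were chosen with earlier results of these data known. Alternatives were another starting signal, background correction, centring, loess, variance model, brightness filter, probe rule and leaving out a mouse. A result for 1 member is not reported here.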

Additional observations from a re-analysis of the deposited data

How the results depend on the processing

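The 6 higher calls among members became 17 in the scanner-signal fit, 22 with no background correction and 15 when the variance followed intensity, and stayed between 4 and 9 with offset 10, median centring, a further loess, the probes brighter than the median or the mean of all probes. The 10 lower calls became 0 in the scanner-signal fit with either offset (10 at an unadjusted p under 0.05 with each) and lay between 9 and 14 otherwise, except that processed signals with the scanner filter gave 0 calls in either direction (2 higher and 12 lower at an unadjusted p under 0.05 in limma). Over all genes the 1120 higher and 804 lower calls became 388 and 51 in the scanner-signal fit, 309 and 85 with offset 10, 567 and 493 with probes brighter than the median, and 0 and 0 with processed signals (1083 and 1703 at an unadjusted p under 0.05 in limma). With no background correction they were 1109 and 897 of 7303 genes, where members had 22 and 11 of 77. The cause of these shifts was not tested, other than that the probes brighter than the median cover fewer genes.

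Complex medians were 0.01, 0.42, -0.04, -0.02 and 0.01 for complexes I to V. For those that moved by more than the SD between mice, the scanner-signal fit gave 0.028 for II, 0.072 for III, 0.50 for IV and 0.45 for V, and processed signals 0.18 for II. Offset 10 gave 0.054, 0.077, 0.28 and 0.29 for II to V, and no background correction 0.042, 0.11, 0.076, 0.18 and 0.21 for I to V. Median centring gave -0.047, 0.36, -0.097, -0.074 and -0.039 for I to V, a further loess -0.033, 0.38, -0.082 and -0.031 for I to IV, the probes brighter than the median 0.047 for I and -0.0066 for IV, and the mean of all probes 0.035 for I. Leaving out either mouse gave 0.028 to 0.066 for I, 0.39 to 0.43 for II, -0.056 to -0.052 for III, -0.0090 to 0.0014 for IV and 0.015 to 0.076 for V, and left no test. Signs turned with a call for Cox6a1 (1.75 in the scanner-signal fit, 0.81 with no background correction), Uqcrh (1.46 and 0.67), Uqcrq (1.23 and 0.63) and Cox4i1 (0.45 with no background correction).

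Of the 16 called members, 16 were called after a further loess and also with the variance trend, 14 of the 14 tested among probes brighter than the median, 14 after centring and 14 with no background correction, 13 with the mean of probes and 2 in the scanner-signal fit with either offset. No paired analysis was possible because 1 pool was the control on either array. Every member probe in the value table passed the background flag in Cy5 and Cy3 each time, and 0 of the 14 members outside it did so in Cy5.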
